A study of Chlamydomonas reinhardtii with 42 samples.

Results

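CIA5 (Cre02.g096300, also called CCM1) and LCR1 (Cre09.g399552) are regulators of the CO2-concentrating mechanism (CCM) of the green alga Chlamydomonas reinhardtii. Both were taken by gene identifier and make up 2 of the 17741 genes in the count table, and both passed the filter on low counts. The table covers 42 libraries from the wild-type strain CC-125, with 3 libraries in each of 14 conditions. Cells came from acetate-containing TAP medium, were then kept in the mineral medium HSM in low light, and were either given 20 mM sodium acetate or left in HSM at time 0. With acetate, high light (HL, 300 µmol photons per square metre and second) was applied for 15 or 60 min from 240 min after the addition, called day 1, or from 1440 min, called day 2, and low light (LL, 5 µmol photons) was sampled at 15, 240 and 1440 min. Cultures in HSM without acetate were sampled in HL and in LL at the same times. The sample labels give another growth light, 15 µmol photons, for the cultures before the experiment. All groups share the strain and the pre-culture, and the 3 libraries of a condition were described as biological replicates.

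The CCM raises the CO2 concentration around Rubisco when inorganic carbon is scarce, by means of bicarbonate transporters and channels, carbonic anhydrases and the LCIB family of proteins. CIA5 is a nuclear zinc-finger protein without which most low-CO2-induced genes are not switched on, and its protein, more than its transcript, is held to be the point of control. LCR1 is a MYB transcription factor that lies downstream of CIA5 and acts on a few low-CO2-induced genes, among them LCI1, a bicarbonate transporter of the plasma membrane. Acetate is respired and gives internal CO2, whereas strong light speeds up CO2 fixation. No protein was measured here, only transcript counts.

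Total counts per library were between 19232757 and 34098899. Levels below are CPM (counts scaled to a common library size) after TMM scaling, which corrects for a few very abundant transcripts taking up much of a library, with the mean ± SD over 3 libraries. CPM is not divided by gene length, so levels are compared within a gene and not between the genes. Differences are log2 fold changes from the quasi-likelihood test of edgeR over 13886 genes, with Benjamini-Hochberg adjusted p-values and a threshold of 0.05, and the 95% intervals given are not adjusted. The scaling matters for CIA5, whose differences were small: scaling by library size alone moved the median over all genes by −1.40 to 1.04 on the log2 scale, by more than 0.1 in 27 of 30 comparisons, and calls that were higher made up 7.81% to 98.2% of the calls of a comparison, against 41.2% to 61.6% with TMM. RLE scaling moved that median by at most 0.16. Where library size alone turned the sign of a called difference, both values are given, together with the value relative to the median of all genes. A change of scaling moves nearly all genes alike, so this relative value hardly depends on it by construction. It therefore cannot show which scaling is right.

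CIA5 transcript was abundant in every library, with 920 to 3173 counts. With acetate, the 3 libraries held 87.2, 77.6 and 87.1 CPM after 15 min of LL, 50.5, 48.7 and 50.5 CPM after 240 min, and 52.7, 53.0 and 56.6 CPM after 1440 min. In HL with acetate they held 80.04, 77.5 and 89.0 CPM after 15 min on day 1, 43.8, 43.9 and 47.4 CPM after 60 min on day 1, 83.8, 75.9 and 73.7 CPM after 15 min on day 2, and 88.8, 81.9 and 98.8 CPM after 60 min on day 2. In HSM, LL libraries stayed close together at all times, with 82.7, 90.1 and 91.2 CPM at 15 min, 81.5, 84.8 and 86.5 CPM at 240 min, and 92.5, 83.0 and 87.9 CPM at 1440 min. In HL without acetate they held 109.5, 121.0 and 110.0 CPM after 15 min and 66.8, 73.6 and 72.6 CPM after 60 min on day 1, and 179, 153 and 139 CPM after 15 min and 73.0, 73.6 and 80.5 CPM after 60 min on day 2. The highest libraries were thus those of HSM after 15 min of HL on day 2 and the lowest those of acetate after 60 min of HL on day 1.

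In the order of condition means, CIA5 ran from 157 ± 20.2 CPM in HSM after 15 min of HL on day 2 down to 45.0 ± 2.06 CPM with acetate after 60 min of HL on day 1, a 3.49-fold range. The 2 HSM conditions at 15 min of HL stood above all others, with 113 ± 6.48 CPM on day 1, and their libraries did not overlap with those of the neighbour in the order. From the third condition (acetate, 60 min of HL, day 2, 89.8 ± 8.49 CPM) to the eleventh (HSM, 60 min of HL, day 1, 71.0 ± 3.68 CPM), the libraries of each condition overlapped with those of the next, which makes 8 of 13 neighbouring pairs that could not be told apart by their libraries. The 3 lowest conditions, all with acetate, were LL at 1440 min (54.1 ± 2.17 CPM), LL at 240 min (49.9 ± 1.03 CPM) and 60 min of HL on day 1, each separate from the next. This order is that of TMM-scaled levels.

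LCR1 covered a far wider span, reaching 1 CPM in 33 of 42 libraries, whereas all 42 libraries held CIA5 at that level. With acetate in LL, its libraries held 3.298, 4.73 and 2.62 CPM at 15 min (56, 85 and 52 counts) and 1.21, 1.63 and 2.67 CPM at 240 min (37, 42 and 102 counts). At 1440 min, a single count was found in 1 library and none in the other two, which allows up to 0.0918 and 0.122 CPM there, as the level of 3 counts. This limit covers counting error only. In HL with acetate on day 1, the libraries held 30.8, 56.5 and 38.1 CPM after 15 min and 15.4, 14.7 and 18.3 CPM after 60 min. On day 2, the same exposures gave only 2, 3 and 1 counts after 15 min (0.0660, 0.117 and 0.0430 CPM) and 1, 9 and 11 counts after 60 min (0.0366, 0.371 and 0.485 CPM).

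Without acetate LCR1 was well expressed at every time. HSM libraries in LL held 44.5, 34.2 and 48.1 CPM at 15 min, 18.9, 39.9 and 62.0 CPM at 240 min, and 57.0, 46.4 and 88.0 CPM at 1440 min. The libraries at 240 min therefore spread widely, and their range overlapped with those at the other LL times. In HL without acetate, the libraries held 133, 128 and 140 CPM after 15 min and 73.3, 52.3 and 60.1 CPM after 60 min on day 1, and 231, 229 and 219 CPM after 15 min and 50.3, 57.9 and 56.0 CPM after 60 min on day 2. The 6 libraries of HSM after 15 min of HL were higher than all other libraries.

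**Figure D1:**
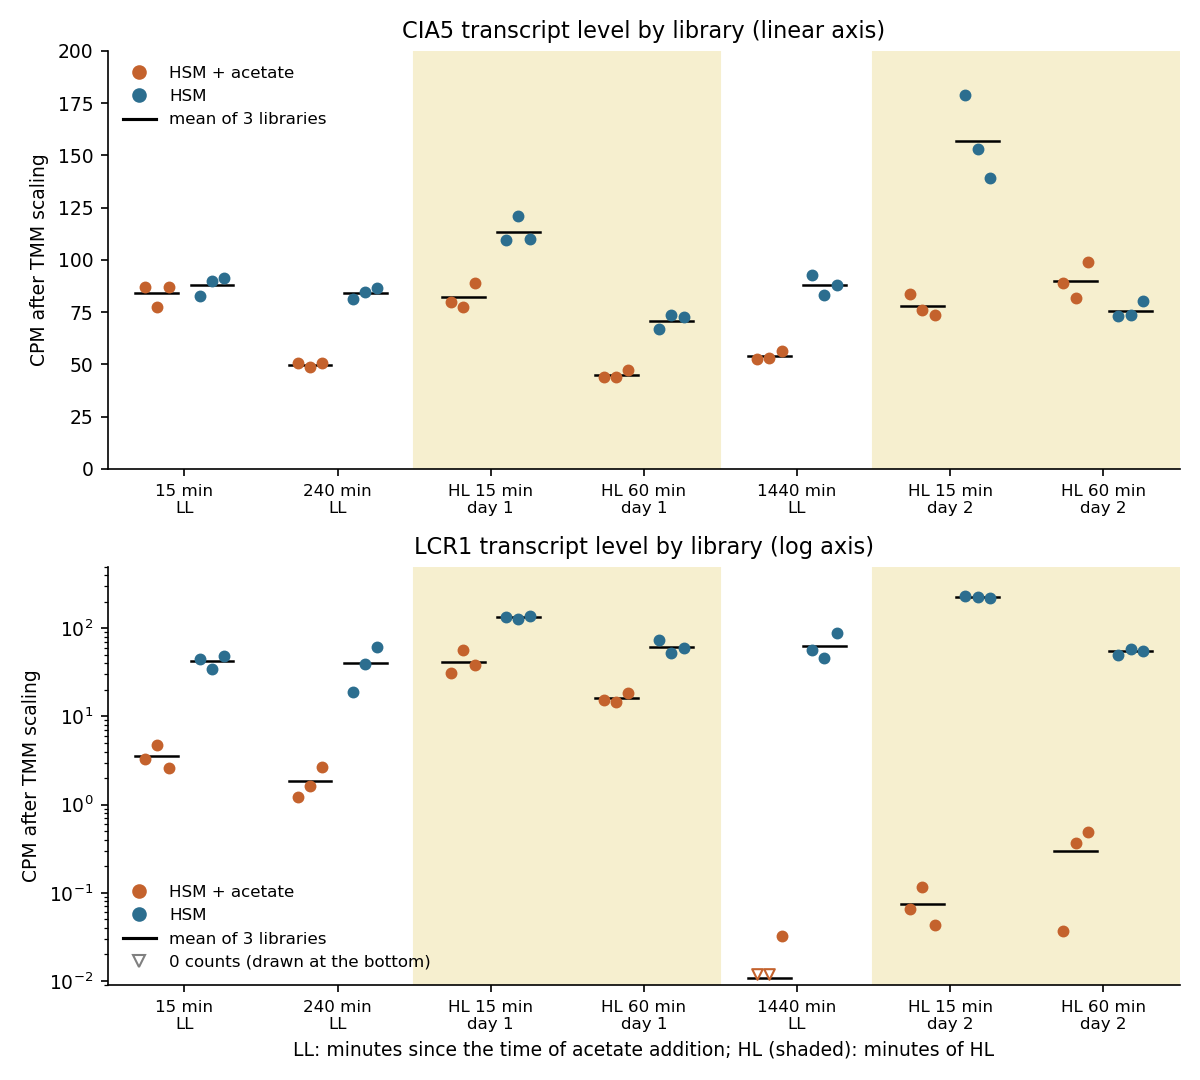
Levels of CIA5 (top, linear axis) and LCR1 (bottom, log axis) in CPM after TMM scaling. Each point is a library, lines mark the mean of 3 libraries, HL is shaded, and open triangles are libraries with 0 counts. CIA5 stayed between 45.0 and 157 CPM as condition means, while LCR1 with acetate lay below 1 CPM in all 9 libraries of day 2.

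In the order of means, LCR1 stood at 227 ± 6.37 CPM and 134 ± 5.81 CPM in HSM after 15 min of HL on day 2 and on the day before. Next came HSM in LL at 1440 min (63.8 ± 21.6 CPM), 60 min of HL on day 1 (61.9 ± 10.6 CPM) and 60 min of HL on day 2 (54.8 ± 3.96 CPM), whose libraries overlapped with their neighbours. HSM in LL at 15 min (42.3 ± 7.25 CPM), acetate with 15 min of HL on day 1 (41.8 ± 13.21 CPM) and HSM in LL at 240 min (40.3 ± 21.5 CPM) also overlapped. The remaining acetate conditions were lower, with 16.1 ± 1.88 CPM after 60 min of HL on day 1, 3.55 ± 1.07 CPM in LL at 15 min, 1.84 ± 0.755 CPM in LL at 240 min, 0.297 ± 0.233 CPM after 60 min of HL on day 2, 0.0755 CPM after 15 min of HL on day 2 and 0.0108 CPM in LL at 1440 min. The libraries of a condition agreed less for LCR1 than for CIA5: the biological coefficient of variation estimated by edgeR was 0.250 for LCR1 and 0.0847 for CIA5, where the trend for genes of their abundance gave 0.147 and 0.149.

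The first comparison asked how the transcripts of the regulators answer to HL. In HSM, CIA5 was higher after 15 min of HL than in LL on both days, by a log2 fold change of 0.43 ± 0.096 (SE, adjusted p = 0.000171 by edgeR) on day 1 and 0.84 ± 0.097 (adjusted p = 1.82e-09) on day 2. With library size alone the day 1 value was 0.27 and no longer called (adjusted p = 0.22). Of all genes tested, 69.9% and 71.2% were called in these comparisons, and CIA5 changed by more than only 29.4% and 48.3% of them. After 60 min CIA5 was slightly lower than in LL, by −0.25 on day 1 (adjusted p = 0.0237, 65.4% of genes called), where library size alone gave 0.26, and by −0.21 on day 2 (adjusted p = 0.0474, 68.9% called), where it gave 0.62. Relative to the median of all genes, these were −0.37 with TMM and −0.37 with library size on day 1, and −0.29 and −0.31 on day 2. With TMM but no filter on low counts, the relative values were −0.26 on day 1 and −0.15 on day 2. Each of these small decreases lost its call in 3 of the 6 fits that left out a library, for example at −0.21 without replicate 1 of 60 min of HL on day 1 (adjusted p = 0.0934) and at −0.17 without replicate 1 of LL at 1440 min (adjusted p = 0.158).

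With acetate, CIA5 was higher in HL in 3 of the 4 comparisons. Its log2 fold change was 0.72 ± 0.097 after 15 min on day 1 (adjusted p = 8.08e-08, 58.6% of genes called) and 0.52 ± 0.096 after 15 min on day 2 (adjusted p = 1.23e-05, 67.7% called). After 60 min, it was −0.15 on day 1 with a 95% interval of −0.34 to 0.05 (adjusted p = 0.198, 51.8% called) and 0.73 ± 0.097 on day 2 (adjusted p = 2.17e-08, 76.2% called). On day 2 with acetate and TMM scaling, CIA5 was therefore above LL at both times of HL, with no overlap between the libraries. Library size alone left values of only 0.07 and 0.17 (adjusted p = 0.759 and 0.441 by edgeR). The libraries then overlapped, at 67.8 to 81.6 CPM in LL, 69.4 to 88.0 CPM after 15 min and 77.0 to 94.7 CPM after 60 min.

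LCR1 was higher after 15 min of HL in HSM by 1.73 ± 0.282 on day 1 (adjusted p = 1.6e-06) and by 1.83 ± 0.283 on day 2 (adjusted p = 6.48e-07), that is 3.32-fold and 3.55-fold. After 60 min, little of this was left. The log2 fold change was 0.62 on day 1 (adjusted p = 0.0481), with overlapping libraries and a call that was lost in 4 of 6 fits leaving out a library, down to 0.28 without replicate 1 of LL at 240 min (adjusted p = 0.361). On day 2 it was −0.22 with a 95% interval of −0.78 to 0.34 (adjusted p = 0.485). With acetate on day 1, LCR1 was 22.3-fold higher after 15 min (log2 fold change 4.48 ± 0.339, adjusted p = 1.73e-13) and 8.62-fold higher after 60 min (3.11 ± 0.329, adjusted p = 7.06e-10), larger changes than those of 99.7% and 98.6% of the genes tested. On day 2 with acetate, the 3 libraries together held 6 counts after 15 min of HL and 1 count in LL, a ratio of 6.67 with an exact 95% counting interval of 0.809 to 307 (adjusted p = 0.237 by edgeR). After 60 min there were 21 counts, 24.9 times the LL level with a counting interval of 4 to 1030 (adjusted p = 0.0049), which is a difference among levels below 1 CPM.

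**Figure D2:**
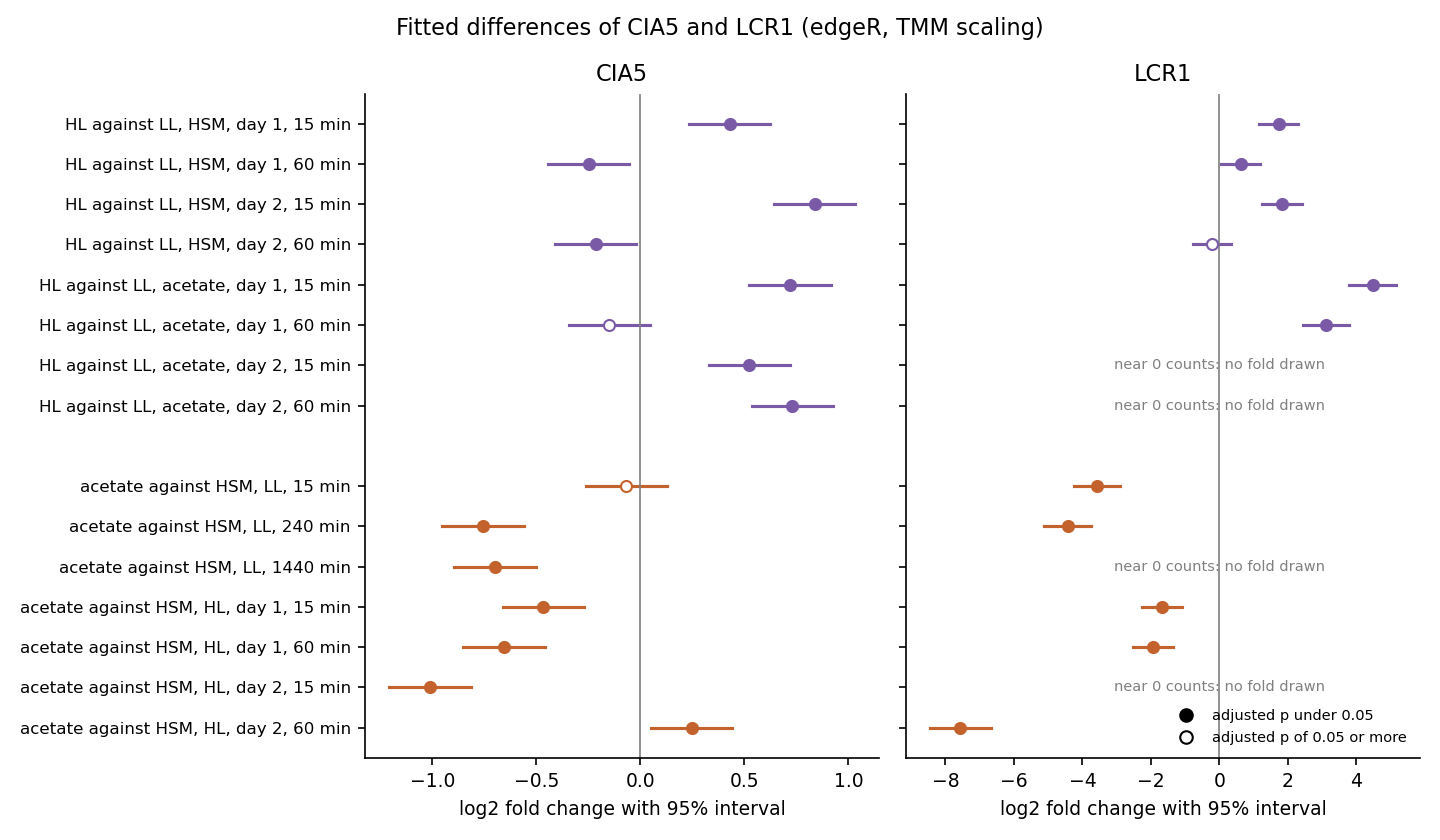
Log2 fold changes of CIA5 (left) and LCR1 (right) with unadjusted 95% intervals, for HL against LL (purple) and acetate against HSM (orange). Filled points passed the threshold. With TMM scaling CIA5 moved between −1.01 and 0.84 and LCR1 between −7.56 and 4.48, and no fold is drawn where a condition had at most 3 LCR1 counts in each library. With library size alone, 5 CIA5 differences that were called with TMM turned their sign. They were HL for 60 min in HSM on both days, and acetate in LL at 1440 min, in HL for 15 min on day 1 and in HL for 60 min on day 2. HL for 60 min with acetate on day 1, called with neither scaling, turned too. Its LL and HL means were 49.9 and 45.0 CPM with TMM, and 64.3 and 69.3 CPM with library size.

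The second comparison asked how acetate changes these transcripts at the same light and time. LCR1 was lower with acetate in all 7 comparisons, with no overlap between the libraries. It was 11.9-fold lower after only 15 min of LL (log2 fold change −3.58 ± 0.330, adjusted p = 6.22e-12 by edgeR, 74.0% of genes called) and 21.5-fold lower after 240 min (−4.43 ± 0.339, adjusted p = 1.73e-13, 64.8% called). At 1440 min, acetate libraries held 1 count in all and HSM libraries 3276, so that the level in HSM was 5650 times that with acetate with a counting interval of 1010 to 223000 (adjusted p = 4.18e-18, 63.9% called). In HL on day 1 the decrease was smaller, −1.68 ± 0.281 after 15 min (adjusted p = 3.36e-06, 65.4% called) and −1.94 ± 0.286 after 60 min (adjusted p = 7.39e-07, 50.2% called). On day 2 the acetate libraries held 6 counts after 15 min of HL and the HSM libraries 10056, a level in HSM 2990 times higher with a counting interval of 1370 to 8150 (adjusted p = 3.28e-20, 70.9% called). After 60 min the log2 fold change was −7.56 ± 0.441 (adjusted p = 2.84e-17, 74.0% called).

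CIA5 showed smaller differences. After 15 min of LL with acetate, when LCR1 was 11.9-fold lower, its log2 fold change was −0.07 with a 95% interval of −0.26 to 0.13 (adjusted p = 0.534 by edgeR). At 240 min CIA5 was lower by −0.76 ± 0.097 (adjusted p = 2.26e-08), which library size alone left at −0.32 (adjusted p = 0.148), and at 1440 min by −0.70 ± 0.097 (adjusted p = 1.06e-07), where library size alone turned the second to 0.28, while the value relative to the median of all genes was −0.70 with TMM and −0.71 with library size. In HL, CIA5 was lower with acetate after 15 min on day 1 by −0.47 ± 0.096 (adjusted p = 7.28e-05), where library size gave 0.17, after 60 min on day 1 by −0.66 ± 0.096 (adjusted p = 7.07e-07), and after 15 min on day 2 by −1.01 ± 0.097 (adjusted p = 1.74e-11). Library size alone left the last 2 at −0.47 and −0.30, no longer called (adjusted p = 0.0549 and 0.165). The exception was 60 min of HL on day 2, where CIA5 was slightly higher with acetate by 0.25 ± 0.096 (adjusted p = 0.0211), a call lost in 3 of 6 fits leaving out a library (0.17 without acetate replicate 3, adjusted p = 0.138) and turned to −0.18 by library size. Relative to the median of all genes, this difference was 0.29 with TMM and 0.28 with library size. In that condition LCR1 had 1, 9 and 11 counts with acetate.

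The acetate effect differed between light and days by tests of the difference itself. For LCR1, it was weaker in HL than in LL on day 1, by 2.75 ± 0.424 on the log2 scale after 15 min (adjusted p = 7.66e-06 by edgeR, 29.0% of genes called) and 2.49 ± 0.425 after 60 min (adjusted p = 2.95e-05, 35.1% called). On day 2 it was deeper than on day 1 at 60 min of HL, by −5.62 ± 0.536 (adjusted p = 7.46e-11, 55.1% called), as well as in LL (adjusted p = 7.64e-08, 40.3% called) and at 15 min of HL (adjusted p = 9.67e-15, 39.7% called), for which no fold is given since acetate libraries were near 0. For CIA5 the acetate effect at 15 min of HL was deeper on day 2 than on day 1 by −0.55 ± 0.136 (adjusted p = 0.00147, and 0.209 with library size alone at −0.47). At 60 min it was shifted upwards by 0.90 ± 0.136 against day 1 (adjusted p = 9.11e-07, and 0.377 with library size alone at 0.29) and by 0.95 ± 0.136 against LL of day 2 (adjusted p = 3.08e-07, 61.3% of genes called), where library size turned the second to −0.45. Relative to the median of all genes, the second was 0.93 with TMM and 0.93 with library size. In LL, the acetate effect on CIA5 differed between 1440 and 240 min by 0.06 with a 95% interval of −0.22 to 0.33 (adjusted p = 0.775). Between HL at 15 min and LL on day 2 it differed by −0.31 with a 95% interval of −0.59 to −0.04 (adjusted p = 0.0696, 35.9% called), which is not past the threshold. It was called at −0.39 with RLE (adjusted p = 0.0239), at −0.39 with DESeq2 (adjusted p = 0.00669), at −0.49 with only the libraries compared (adjusted p = 0.0472) and in 3 of 12 fits leaving out a library. For LCR1 the adjusted p was 0.79.

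Between 15 and 60 min of HL both transcripts went down together in 3 of 4 series. CIA5 at 60 min was lower than at 15 min by −0.68 ± 0.096 in HSM on day 1 (adjusted p = 1.97e-07 by edgeR, 65.0% of genes called), by −1.05 ± 0.097 in HSM on day 2 (adjusted p = 1.07e-11, 72.3% called) and by −0.87 ± 0.097 with acetate on day 1 (adjusted p = 1.95e-09, 61.1% called). LCR1 was lower by −1.11 ± 0.277, −2.05 ± 0.284 and −1.37 ± 0.282 in the same series (adjusted p = 0.000719, 7.95e-08 and 7.75e-05). The HSM values of CIA5 shrank to −0.02 and −0.02 with library size alone and that of LCR1 on day 1 to −0.47, below the threshold. With acetate on day 2 neither was called: CIA5 differed by 0.21 with a 95% interval of 0.01 to 0.40 (adjusted p = 0.0594, 63.0% called), and LCR1 held 21 counts at 60 min and 6 at 15 min (ratio 3.73, counting interval 1.46 to 11.29, adjusted p = 0.0919). The CIA5 call appeared in 2 of 6 fits leaving out a library, at 0.27 without replicate 2 at 60 min and 0.26 without replicate 1 at 15 min (adjusted p = 0.0236 and 0.0353), and the LCR1 call appeared without replicate 1 at 60 min (adjusted p = 0.0226).

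Within LL, neither gene was called over time in HSM, where 4.2% and 20.5% of the genes were called between 240 and 15 min and between 1440 and 240 min. The largest difference was that of LCR1 between 1440 and 240 min, 0.66 with a 95% interval of 0.10 to 1.23 (adjusted p = 0.087 by edgeR), which became 1.12 (adjusted p = 0.00742) without replicate 3 at 240 min and 0.83 (adjusted p = 0.048) without replicate 2 at 1440 min. CIA5 differed by −0.06 and 0.06 at these steps. With acetate, CIA5 at 240 min was lower than at 15 min by −0.75 ± 0.097 (adjusted p = 2.52e-08, 67.3% called), where library size alone gave 0.18 but −0.72 relative to the median of all genes, as with TMM. LCR1 was lower by −0.92 ± 0.358 (adjusted p = 0.0235), with overlapping libraries, a value of 0.003 with library size alone and a call lost in 3 of 6 fits leaving out a library (−0.66 without replicate 2 at 15 min, adjusted p = 0.157). Relative to the median of all genes, the LCR1 value was −0.89 with TMM and −0.90 with library size. From 240 to 1440 min CIA5 differed by 0.12 with a 95% interval of −0.08 to 0.31 (adjusted p = 0.319, 52.2% called). LCR1 had 1 count at 1440 min, against 181 counts at 240 min, so that the level at 240 min was 168 times higher (counting interval 29.8 to 6680, adjusted p = 4.23e-08).

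The number of LCR1 counts per 100 CIA5 counts in the same library needs no scaling between libraries. With acetate it was 4.295 ± 1.60, 3.68 ± 1.48 and 0.0192 ± 0.0332 in LL at 15, 240 and 1440 min. In HL with acetate it was 0.0972 ± 0.0507 after 15 min and 0.328 ± 0.249 after 60 min on day 2, against 51.4 ± 18.7 and 35.8 ± 2.55 on day 1. In HSM, the ratio stayed between 47.3 ± 24.2 in LL at 240 min and 146 ± 14.7 after 15 min of HL on day 2. The ratio was lower with acetate than in HSM at every light and time, with no overlap between the libraries in any of the 7 pairs. After 15 min of HL on day 1, acetate libraries reached 72.9 and HSM libraries began at 106. In LL at 240 min acetate libraries reached 5.29 and HSM libraries began at 23.2.

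**Figure D3:**
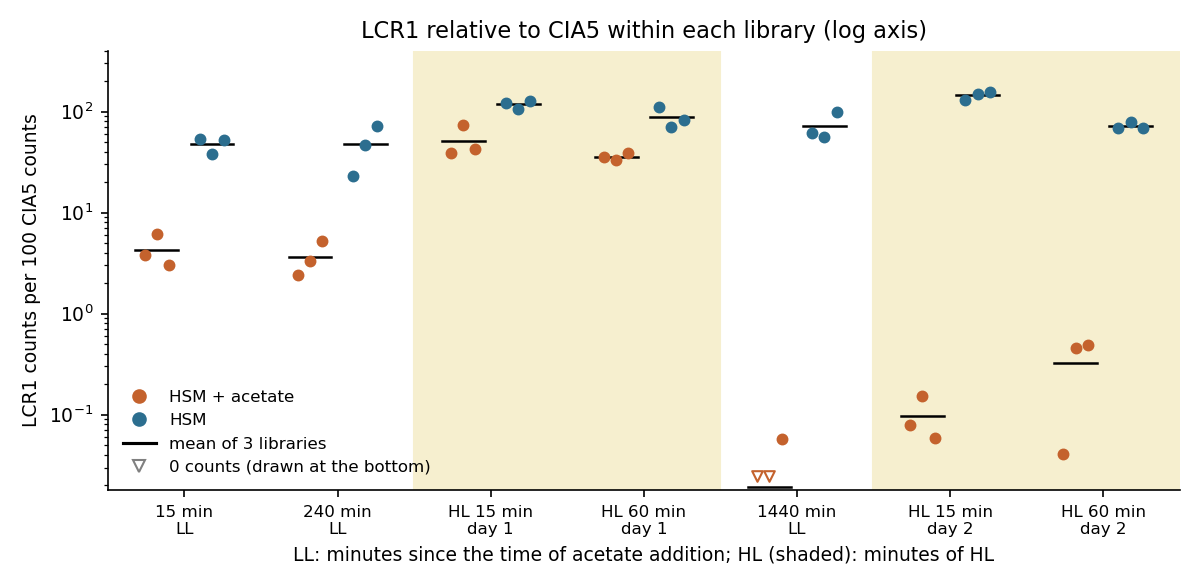
LCR1 counts per 100 CIA5 counts in each library (log axis), which does not depend on the scaling between libraries. Lines mark means of 3 libraries, HL is shaded, and open triangles are libraries with 0 LCR1 counts. With acetate the mean ratio was 51.4 after 15 min of HL on day 1 and at or below 0.328 in the 3 conditions of day 2, where the highest library held 0.491.

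The relation between the transcripts depended on the medium and on a few conditions. Over the 7 acetate condition means of log2 CPM, Pearson's r was −0.08 and Spearman's rho −0.04, and over the 7 HSM means they were 0.87 and 0.57. With TMM the HSM value rested on 15 min of HL on the 2 days: without these conditions, which with TMM were farthest from the median of CIA5, r was −0.48 over 5 means. Over all 7 HSM means, r was 0.86 with RLE and 0.81 with library size alone. The pair farthest from the median was another one under these scalings, and without it r was 0.77 with RLE and 0.86 with library size. Over the 7 acetate means r was −0.19 with RLE and 0.17 with library size, and without the farthest pair 0.49 with TMM, 0.37 with RLE and −0.67 with library size. Within conditions, the deviations of the 42 libraries from their condition means had r = 0.07 and rho = 0.02, but 0.47 and 0.43 with library size alone. With TMM they were 0.08 and 0.08 without replicate 1, 0.37 and 0.49 without replicate 2, and −0.38 and −0.40 without replicate 3. Their sign thus depended on the libraries included. These correlations are descriptions, and points from the same culture series, medium or scaling are not independent.

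**Figure D4:**
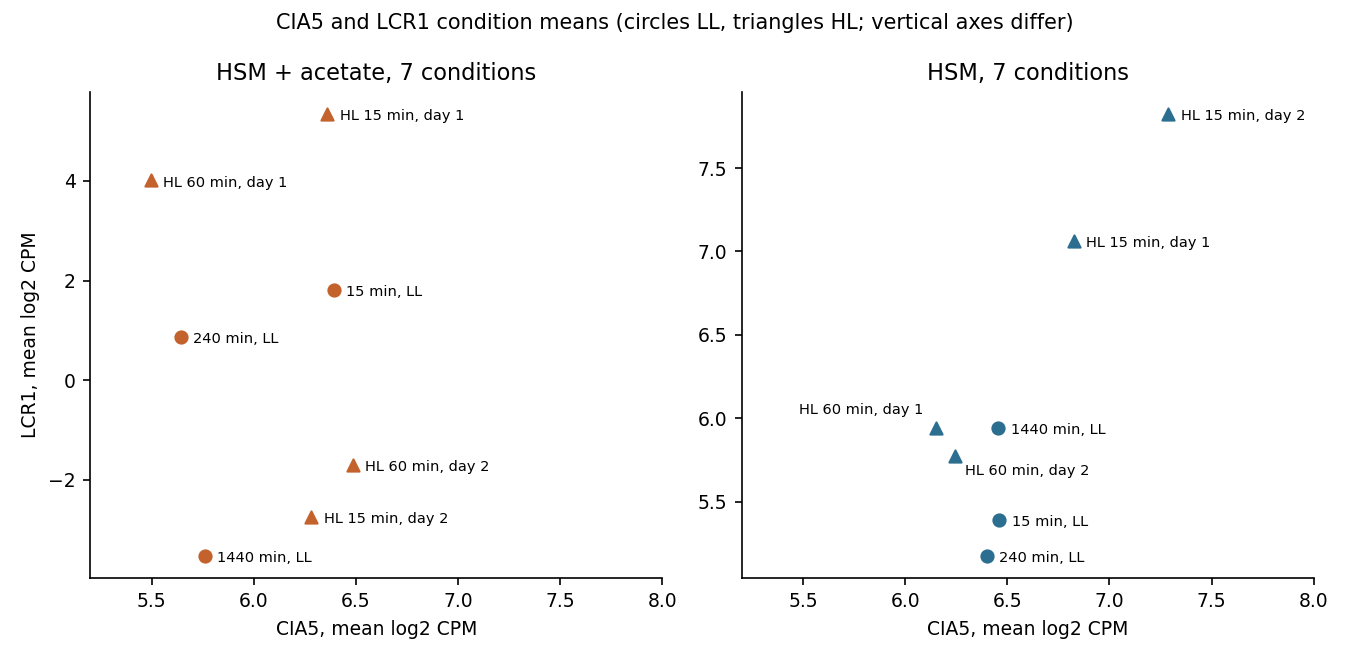
Condition means of log2 CPM (TMM scaling, prior count 2) of CIA5 and LCR1 in the 7 acetate conditions (left) and the 7 HSM conditions (right). Circles are LL and triangles HL. In HSM the 2 conditions at 15 min of HL stand apart at high CIA5 and high LCR1, and with acetate the 3 conditions of day 2 are low in LCR1, at CIA5 means of 54.1, 77.8 and 89.8 CPM.

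Likeness to other genes was measured by Spearman's rho of log2 CPM over the 42 libraries, and it is given as a description. LCR1 ranked 1124 of 13885 genes by likeness to CIA5 and 46 among the transcription factors of the study's list, and CIA5 ranked 2060 by likeness to LCR1 and 60 among the transcription factors. LCR1 had many genes like it, 359 with rho above 0.8, while CIA5 had 26. The genes most like CIA5 were Cre07.g313900 (rho 0.87), Cre10.g453700 (0.86), Cre09.g403900, Cre01.g024500 and Cre16.g654150 (0.85 each), and those with the most opposite pattern were Cre06.g288050 and Cre11.g467666 (−0.88 each) and Cre09.g386149 (−0.87). For LCR1 they were Cre04.g214000 (0.95), Cre02.g112366, Cre06.g293200, Cre13.g579326 and Cre02.g112333 (0.94 each), with Cre13.g572600 (−0.93), Cre03.g154600 (−0.92) and Cre04.g221400 (−0.90) at the other end. The genes named for CIA5 depended on the scaling. Under library size alone the 5 most like it had rho between 0.45 (Cre10.g453700, rank 2343) and 0.78 (Cre07.g313900, rank 84), and the 3 opposite ones between 0.00 and 0.11. For LCR1 the same genes had rho between 0.84 and 0.94, and between −0.83 and −0.72.

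The study's list of transcription factors rests on protein homology, and the study judges its member LCI8 likely to be wrongly included. Among the listed genes, those most like CIA5 were Cre07.g335150 of the SBP family (0.84), Cre02.g094150 of the Pseudo ARR-B family (0.83), Cre10.g446450 (0.80), Cre12.g510200 of the bZIP family and Cre03.g212641 of the TAZ family (0.78 each). For LCR1 they were Cre12.g507500, another MYB-related factor (0.93), Cre16.g673250 of the SBP family (0.88), Cre02.g082550 (ZEP1 in the supplementary tables, listed as FHA family, 0.85), Cre06.g305850 of the ARID family (0.85) and Cre06.g285600 of the RWP-RK family (0.84). Whether the listed genes, ZEP1 among them, act as transcription factors was not tested. No listed gene was among the 5 nearest of both genes.

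All 6 carbon transport genes tested and all 4 of the LCIB family had a higher rho with LCR1 than with CIA5, also with library size alone. With TMM this held for 4 of 8 carbonic anhydrases and 3 of 5 photoprotective genes, and with library size alone for 4 and 2 of them. The share of all genes with a higher rho with LCR1 was not counted. A high rho was more common with LCR1: over all genes the 95th percentile was 0.72 with LCR1 and 0.57 with CIA5. By rank among all genes, 5 of the 6 and 3 of the 4 stood nearer to LCR1. By rho with LCR1, the bicarbonate transporter HLA3 ranked 36 of 13885 genes (0.91), LCIA, a transporter of the chloroplast envelope, 77 (0.89), LCI1 79 (0.88) and LCI11, a bestrophin-like thylakoid protein, 85 (0.88). The same genes ranked 2130, 2194, 2087 and 939 by likeness to CIA5, with rho of 0.39, 0.38, 0.39 and 0.53. The exceptions by rank were LCIB (rho 0.65, rank 337 with CIA5, and 0.69, rank 873 with LCR1) and Cre16.g662600 of the carbon transport list (0.59, rank 608, and 0.64, rank 1147). Of the carbonic anhydrases, which interconvert CO2 and bicarbonate, CAH5 and CAH4 of the mitochondria had rho of 0.80 and 0.76 with LCR1, although these near-identical copies may share reads, while CAH7 and CAH9 ran opposite to it (−0.77 and −0.71). Of the photoprotective proteins, LHCSR3.1 and LHCSR3.2, again near-identical copies, had rho of 0.76 and 0.77 with LCR1, LHCSR1 0.11, and PSBS1 and PSBS2 0.42 and 0.43. RHP1, a Rhesus protein, had 0.33.

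Among the 371 transcription factors tested, LCR1 had the widest range over the 14 condition means, 11.35 on the log2 CPM scale with a prior count of 2, against 7.90 for the next, Cre03.g212977, and a median of 2.47. CIA5 had a range of 1.79 and ranked 293. In the 7 acetate conditions alone LCR1 again ranked 1 (8.87) and CIA5 343 (0.99), and in the 7 HSM conditions LCR1 ranked 58 (2.65) and CIA5 263 (1.14). The rank of LCR1 over all conditions was 1 under library size, RLE scaling and a prior count of 0.5 too, while CIA5 ranked 371 with library size and 276 with RLE. In HSM, LCR1 ranked 160 with library size alone. The size of the LCR1 range depends on the prior count, 13.04 with 0.5, since 3 conditions were near 0.

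The other CCM genes are given beside LCR1, without a test of whether they differ from it. On day 1, all 6 genes of the carbon transport list that were tested (HLA3, LCI1, LCIA, CCP2, LCI11 and Cre16.g662600) and all 4 of the LCIB family were higher in HL than in LL with acetate, at 15 and at 60 min, with a median log2 fold change of the transport list of 6.55 and 6.22 against 0.01 and 0.04 for all genes, of which 30.9% and 27.3% were called higher. LCR1 was then at 41.8 and 16.1 CPM. On day 2 after 60 min, again 6 of 6 and 4 of 4 were higher, with a median of 6.55 for the transport list against 0.05 for all genes (39.9% called higher), and LCR1 was called higher too (21 counts in HL and 1 in LL, adjusted p = 0.0049 by edgeR), at a level of 0.297 CPM. HLA3 was then at 104 ± 48.5 CPM, against 3024 ± 122 CPM after 60 min on day 1. LCI1, a known target of LCR1, was at 17.0 ± 1.81 CPM in HL for 60 min on day 2 and at 0.135 ± 0.107 CPM in LL at 1440 min (7.02 ± 0.576, adjusted p = 2.51e-13 by edgeR), against 406 ± 55.7 CPM after 60 min on day 1. LCIA was at 87.0 ± 31.5 CPM in HL and at 0.236 ± 0.104 CPM in LL (8.54 ± 0.677, adjusted p = 1.01e-13), against 552 ± 18.6 CPM after 60 min on day 1. The LL libraries at 1440 min held only 1, 6 and 4 counts of LCI1 and 4, 8 and 8 of LCIA. The fold changes of LCI1 and LCIA are therefore imprecise. LCIB was at 2499 ± 339 CPM in HL and at 70.3 ± 15.3 CPM in LL (5.15 ± 0.267, adjusted p = 1.04e-18), and Cre16.g662600 at 324 CPM and at 0.954 CPM (8.42 ± 0.493, adjusted p = 2.75e-17). These counts over both lists were the same with library size alone and with RLE scaling.

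After 15 min of HL on day 2 with acetate, LCI1 was at 0.186 ± 0.0946 CPM in HL, its libraries holding 2 to 7 counts, with a log2 fold change of 0.57 ± 1.02 (adjusted p = 0.635 by edgeR), and 5 of the 6 transport genes were higher than in LL, with a median of 2.73 against −0.08 for all genes (32.4% called higher). Of the LCIB family, 3 of 4 were higher and LCIE was at −0.48 (adjusted p = 0.23), which library size alone called lower. Of the 8 carbonic anhydrases tested, 6 were higher after 60 min on day 2 and none lower (library size alone called 1 of the other two lower), and the 5 photoprotective genes were all higher at both times. Compared with HSM in LL, acetate lowered 6 of 6 transport genes and 4 of 4 of the LCIB family at 15, 240 and 1440 min, with a median log2 fold change of the transport list of −3.55, −4.40 and −7.54, where 39.3%, 31.9% and 32.8% of all genes were called lower. At 240 min with library size alone, 1 of the 4 LCIB family genes was not called. In HL after 15 min, acetate lowered 5 of 6 and 4 of 4 on day 1 and 6 of 6 and 4 of 4 on day 2 (31.6% and 33.1% of all genes). After 60 min on day 1, when LCR1 was lower by −1.94, only 2 of 6 transport genes were lower and Cre16.g662600 was higher (1.06, adjusted p = 0.00985). LCI1 was at −0.18 (adjusted p = 0.665). All 4 of the LCIB family were lower (27.2% of all genes). After 60 min on day 2, 5 of 6 and 3 of 4 were lower (38.0% of all genes). Cre16.g662600 (2.11, adjusted p = 1.7e-06) and LCIB (0.73, adjusted p = 0.00394) were higher. With library size alone, 0 of 6 transport genes and 3 of 4 LCIB family genes were lower after 60 min on day 1. It also left 3 of 4 of the LCIB family lower after 15 min on day 1, and LCIB was not called after 60 min on day 2. With RLE 1 of 6 transport genes was lower after 60 min on day 1.

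**Figure D5:**
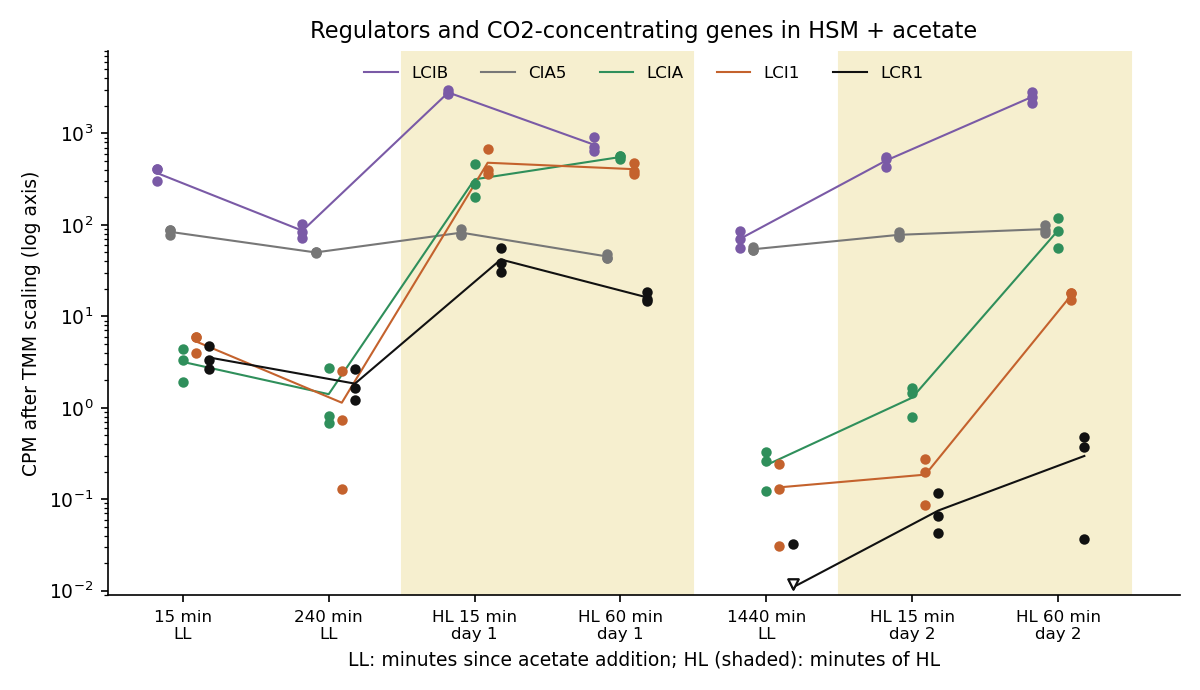
Levels of LCR1, CIA5, LCI1, LCIA and LCIB in the 7 acetate conditions, in CPM after TMM scaling on a log axis. Points are libraries, lines join the means within each series, and the open triangle stands for libraries with 0 LCR1 counts. After 60 min of HL, LCI1 was at 17.0 CPM on day 2 and 406 CPM on day 1, and LCIA at 87.0 and 552 CPM. LCR1 was then at 0.297 CPM on day 2 and 16.1 CPM on day 1.

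Reads from neighbouring genes were checked through the order of genes in the RefSeq annotation of assembly v5.5, which may differ from the build of the counts. No annotated gene overlapped CIA5 or LCR1. The genes next to CIA5, Cre02.g096250 and Cre02.g096350, had rho of 0.44 and −0.04 with it, and those next to LCR1, Cre09.g399513 and Cre09.g399589, had 0.06 and −0.06.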

How the data were processed

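RNA of 42 libraries was made into stranded mRNA libraries (TruSeq) and sequenced (Illumina). After adapter removal by BBduk, the authors mapped the reads to the Phytozome reference of assembly version 5 using STAR 2.5.3, counted them per gene with HTSeq-count in reverse-stranded mode, and deposited the raw counts without normalization. Groups were taken from the sample labels, and 0 columns matched no sample. Members and gene lists were chosen with earlier results of these data known. Identifiers and symbols came from the study's tables, and CAH1, CCP1, BST2, LCI6 and the acetate markers were not analysed, as no identifier was at hand. RHP2 did not pass the filter.

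A minimum of 1 CPM in 9 or more libraries left 13886 genes. After TMM scaling, a single quasi-likelihood model with 14 condition terms was fitted (edgeR 4.0.16, functions glmQLFit, then glmQLFTest, run under R 4.3.3), with Benjamini-Hochberg adjustment over all genes tested. The SE of a fold change was derived as its absolute log2 value over the square root of the F statistic, since the test gives none. The 95% intervals of fold changes were built from these SEs with the t distribution. Both are approximate, above all at low counts. Log2 CPM for correlations used a prior count of 2. Where no library of a condition had more than 3 LCR1 counts, the ratio of summed counts with an exact 95% interval, scaled by effective library sizes, stands in place of a fitted fold. A lower bound against 3 counts had been planned there, and the interval was used because single counts were present. Intervals of counts cover counting error only. The named genes were both members, the pathway lists, the 5 genes with the highest and the 3 with the lowest rho with each, and the 5 transcription factors with the highest. No pair of libraries within a condition agreed within sampling noise (chi-square per degree of freedom 6.22 to 149 over 42 pairs). Alternatives were RLE scaling, library size alone, no filter (17305 genes), DESeq2 1.42.0, only the libraries compared, the replicate number or the last number in the title brackets as a block, another prior count, and leaving out each library. The labels do not say what the bracket number stands for. Correlations were run with SciPy 1.17.1, pandas 2.3.3 and NumPy 2.4.6 under Python 3.11.15, and plots with matplotlib 3.10.9. No sequences are shown.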

Additional observations from a re-analysis of the deposited data

Results flagged for a closer look

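The acetate effect, the log2 fold change of acetate against HSM, differed between light or days for both genes by a contrast of contrasts in edgeR with Benjamini-Hochberg adjustment over all genes tested. For LCR1 the effect in HL minus that in LL on day 1 was 2.75 after 15 min (adjusted p = 7.66e-06) and 2.49 after 60 min (adjusted p = 2.95e-05), and on day 2 after 60 min the difference had an adjusted p of 0.00524, with 21 LCR1 counts in HL and 1 in LL with acetate. The LCR1 effect on day 2 minus that on day 1 was −5.62 after 60 min of HL (adjusted p = 7.46e-11), and had an adjusted p of 7.64e-08 in LL and 9.67e-15 after 15 min of HL, with 1 and 6 counts with acetate on day 2. For CIA5 the effect on day 2 minus that on day 1 was −0.55 after 15 min of HL (adjusted p = 0.00147) and 0.90 after 60 min (adjusted p = 9.11e-07), and the effect in HL for 60 min minus that in LL on day 2 was 0.95 (adjusted p = 3.08e-07), which library size alone turned to −0.45. Single libraries were not tested for standing apart from their condition, since each condition has 3 libraries.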

How the results depend on the processing

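Scaling mattered most, and mainly for CIA5. With library size only, CIA5 in HL against LL was 0.27 (HSM, day 1, 15 min), 0.26 and 0.62 (HSM, 60 min, days 1 and 2), and 0.071 and 0.17 (acetate, day 2, 15 and 60 min). CIA5 with acetate against HSM was then −0.32 and 0.28 in LL at 240 and 1440 min, and in HL 0.17 and −0.47 on day 1 and −0.30 and −0.18 on day 2. At 60 against 15 min of HL in HSM, CIA5 was −0.017 and −0.023 and LCR1 on day 1 −0.47, and at 240 against 15 min of LL with acetate, CIA5 was 0.18 and LCR1 0.00269. None of these CIA5 values was called except the 0.62. The differences of the acetate effect on CIA5 were −0.45 (HL minus LL, day 2, 60 min), −0.47 and 0.29 (day 2 minus day 1, 15 and 60 min), none of them called. Genes called were 2448 (240 against 15 min LL, HSM; 583 with TMM), 2421 and 3217 (acetate effect, HL minus LL, 15 min, days 1 and 2; 4031 and 4989 with TMM). Over 30 comparisons this scaling reversed 7 signs for CIA5 and 1 for LCR1, among differences called with TMM or with library size. Signs of differences called with neither were not counted. LCR1 in HL for 60 min in HSM on day 1 was 0.53 with RLE, 0.53 with DESeq2 and 0.56 with only the libraries compared, no longer past the threshold. The acetate effect on CIA5 in HL at 15 min minus LL on day 2 was −0.39 with RLE, −0.39 with DESeq2 and −0.49 with only the libraries compared, all past it. Without a filter, CIA5 in HL for 60 min in HSM was −0.20 and −0.15, and with acetate against HSM at 60 min on day 2 0.22. With only the libraries compared the last 2 were −0.28 and 0.22, also not called, and genes called at 1440 against 240 min LL in HSM were 1019 (2845 with all libraries). DESeq2 gave an adjusted p of 0.0179 for LCR1 at 60 against 15 min of HL with acetate on day 2, and 898 genes at 240 against 15 min LL in HSM.

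Leaving out a library, CIA5 in HL for 60 min in HSM was −0.27 to −0.21 on day 1 and −0.34 to −0.17 on day 2, LCR1 on day 1 0.28 to 1.08, and CIA5 with acetate at 60 min of HL on day 2 0.17 to 0.31. At 60 against 15 min of HL with acetate on day 2, CIA5 was 0.13 to 0.27 and the adjusted p of LCR1 0.0226 to 0.336. In LL, LCR1 at 1440 against 240 min in HSM was 0.33 to 1.12 and at 240 against 15 min with acetate −1.33 to −0.66, and 165 to 724 genes were called at 240 against 15 min in HSM. The acetate effect on CIA5 in HL at 15 min minus LL on day 2 was −0.42 to −0.21. Libraries with the same replicate number had correlations of deviations of −0.17 to 0.44, above 0.1 in 20 of 69 pairs. With the same bracket number they had −0.39 to 0.44, above 0.1 in 16 of 51 pairs. Libraries with unlike numbers were not correlated, so pairing was not tested. As a block, the replicate number gave 0.69 (adjusted p = 0.0215 by edgeR) for LCR1 in HL for 60 min in HSM on day 1 and changed no call of either gene. Nor did the bracket number as a block, whose meaning the labels do not give. Of 14 correlations, 7 moved with library size alone, 2 with RLE and 5 without the acetate conditions of day 2, as did 8 of 42 values leaving out a replicate number. LCR1 levels with acetate on day 2 were limited by depth, at 0 to 11 counts per library.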
